A study of Mus musculus with 1536 samples.

Results

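The interferon-stimulated gene programme of adult nasopharyngeal lymphatic endothelial cells (LECs) was described across 45 mouse genes chosen by name. Of these, 44 had a row among the 23168 genes of the expression matrix, and *Mx1* was not analysed here. The cells came from the nasopharyngeal mucosa of 30 C57BL/6 mice of both sexes, aged 10–12 weeks, whose tissue was pooled before CD31+ PDPN+ cells were sorted into plates for Smart-seq3, which reads full-length transcripts of single cells. The adult cells (their number is given with the processing) had no group to compare them with, and aged cells were not analysed here. Mouse and plate cannot be read from the column names, so all cells were taken as 1 sample and no test was made. SDs are over cells, and 95% intervals are exact (Clopper–Pearson) and cover counting error only.

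Interferons are secreted proteins that warn cells of viruses and other microbes. Type I interferons bind the IFNAR1 and IFNAR2 receptor, whose kinases JAK1 and TYK2 activate transcription factors, among them STAT2, which acts with IRF9 in the ISGF3 complex that binds interferon-stimulated response elements (ISREs) near antiviral genes. Interferon-γ acts through its own receptor, and many of its target genes carry gamma-activated sites (GAS). Many of the same genes are transcribed at a low level without infection, and endothelial cells are a known site of such expression.

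Reads per cell ran from 7433 to 3524358 (median 350746), and genes per cell from 2001 to 7236 (median 4186.5), so a gene absent from a shallow cell may have been missed. For that reason cells were also thinned to 20000 reads each, with 51 shallower cells left out. The cells carried the lymphatic markers they were labelled for, with *Prox1* in 97.7%, *Flt4* in 99.8% and *Pdpn* in 95.2% of cells. *Ptprc* and *Cd3e*, which define leukocytes and T cells, were at 0 in all cells (3 counts allow a share of up to 0.356%), the other 3 immune markers were found in 2.85% to 10.6% of cells, and no cell held 3 of the 5. *Lyve1*, also a lymphatic marker, was in 86.8% of cells. On the lists of other cell types, the blood endothelial marker *Plvap* was in 77.8% of cells and the fibroblast marker *Dcn* in 12.4%. The remaining markers outside the immune list were each in at most 5.11%. Over all 6 lists of other cell types, 5 cells held 3 or more markers of a list.

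To show the sequence context of genes that behaved differently in these cells, the 250 bases upstream of the start site are given for 5 members, from RefSeq promoters on GRCm38.p6, 5′ to 3′ in the direction of the gene. *Isg15*, *Ifit1* and *Ifit3* varied together from cell to cell, *Ifitm2* was found in nearly all cells and varied apart from them, and *Irf1* also varied apart from most members. Capitals mark matches to the ISRE core (GAAANNGAAA on either strand) in the first 4 sequences and the match to the GAS element (TTCNNNGAA, which reads the same on both strands) in *Irf1*.
Isg15 (chr4:156200819-156201068, minus strand): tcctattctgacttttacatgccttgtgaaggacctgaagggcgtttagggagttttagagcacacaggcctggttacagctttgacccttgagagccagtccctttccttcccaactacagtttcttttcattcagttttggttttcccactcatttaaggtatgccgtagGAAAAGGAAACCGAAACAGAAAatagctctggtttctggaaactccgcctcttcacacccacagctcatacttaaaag
Ifit1 (chr19:34640639-34640888, plus strand): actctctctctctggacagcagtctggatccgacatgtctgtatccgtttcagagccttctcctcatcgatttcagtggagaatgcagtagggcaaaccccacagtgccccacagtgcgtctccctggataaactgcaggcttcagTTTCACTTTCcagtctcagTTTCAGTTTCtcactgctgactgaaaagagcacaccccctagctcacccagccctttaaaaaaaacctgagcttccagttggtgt
Ifit3 (chr19:34583279-34583528, plus strand): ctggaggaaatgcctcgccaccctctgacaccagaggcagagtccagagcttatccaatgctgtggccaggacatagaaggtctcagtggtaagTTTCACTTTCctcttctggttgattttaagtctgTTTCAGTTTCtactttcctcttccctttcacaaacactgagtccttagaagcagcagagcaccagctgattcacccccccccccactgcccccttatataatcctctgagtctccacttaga
Ifitm2 (chr7:140955962-140956211, minus strand): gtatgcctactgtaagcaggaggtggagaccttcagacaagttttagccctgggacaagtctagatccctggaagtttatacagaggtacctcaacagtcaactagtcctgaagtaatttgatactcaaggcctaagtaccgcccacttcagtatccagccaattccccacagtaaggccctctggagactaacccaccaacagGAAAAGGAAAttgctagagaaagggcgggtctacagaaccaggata
Irf1 (chr11:53769764-53770013, plus strand): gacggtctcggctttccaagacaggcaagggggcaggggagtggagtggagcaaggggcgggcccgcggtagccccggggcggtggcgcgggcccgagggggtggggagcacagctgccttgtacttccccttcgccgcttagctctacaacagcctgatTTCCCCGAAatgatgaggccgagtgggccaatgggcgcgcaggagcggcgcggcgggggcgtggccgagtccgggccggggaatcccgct
The *Isg15* sequence held 3 overlapping ISRE core matches, beginning 78, 72 and 66 bases before the start site. *Ifit1* had 2 matches, the nearer of them beginning 85 bases before the start, and *Ifit3* also had 2, both farther upstream. *Ifitm2* held 1 ISRE core match beginning 46 bases before the start, and *Irf1* held 1 GAS match and no ISRE core.

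Promoter windows of 300 bases (250 before to 50 after the start) were available for 34 of the 45 members. Among them, 17 (50%) held the ISRE core, against 3.99% of the 27025 genes with a window and 3.70% of the 12746 of these that were in the matrix. The GAS element was held by 9 members (26.5%), against 9.55% of all genes with a window. The ISRE core was in the windows of 3 of 3 members found in nearly all cells, 10 of 21 found in an intermediate share and 4 of 10 found in few. A match is a run of letters and not a measured binding site, and windows with no match say only that these letters were not there. Members with a match and members without one overlapped in how closely they varied with the rest of the list. Their mean correlation with the other members (defined where correlations are given) had a median of 0.148 (range −0.0106 to 0.246) with a match and 0.123 (range −0.0013 to 0.217) without.

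The list ran from genes found in every cell to genes found in almost none. A member counted as found in a cell at 1 read or more. By this measure 4 members were in at least 90% of cells (9.09% of the 44, against 2.15% of all genes), 27 were in 25% to 90%, and 13 were in under 25% (29.5%, against 72.8% of all genes). The median member was found in 37.3% of cells and the median gene of the matrix in 4.99%. These classes were cuts on a continuum, since *Ifi27* lay just under the upper limit at 89.9%, *Lgals3bp* just above the lower limit at 25.3% and *Rtp4* just below it at 24.2%. At 20000 reads per cell the upper class still held 4 members (1.33% of all genes were in it), but the lower class held 23 (52.3%, against 82.04% of all genes), so membership of the lower class depended on depth.

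**Figure D1:**
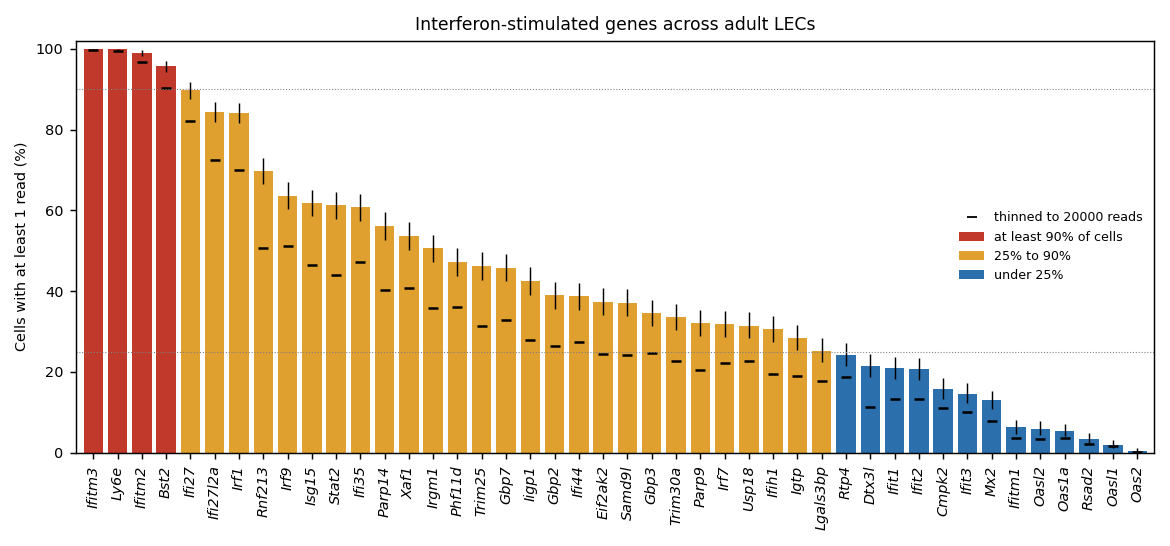
Percentage of the adult cells with at least 1 read of each of the 44 measured members (bars, with 95% exact intervals), coloured by class, and the same percentage in cells thinned to 20000 reads (black ticks). Bars fall from 100% for *Ifitm3* and *Ly6e* to 0.475% for *Oas2*, and thinning lowers the intermediate members most in percentage points.

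The genes found in nearly all cells encode membrane proteins that act on viruses as they enter or leave a cell. *Ifitm3*, whose product blocks fusion of viruses in endosomes, was found in every cell. Its log value (natural log of 1 plus reads per 10000) was 3.92 ± 0.687 (SD over cells, all of 1 sample), from 0.244 in the lowest cell through a median of 4.01 to 5.40 in the highest. Its level per length, 88.5 reads per 10000 per kb of exon, was the highest of the list. *Ly6e*, a lipid-anchored surface protein, was likewise in every cell, with a log value of 3.04 ± 0.708, a median of 3.13 and a range of 0.180 to 4.59. *Bst2* (tetherin, which holds budding virions at the surface) was in 95.8% of cells (95% interval 94.3 to 97.1), with a log value of 1.73 ± 0.852 and a highest cell at 3.97. *Ifitm2*, which lies in the same stretch of chromosome 7 as *Ifitm3*, was in 99.05% of cells with a log value of 1.39 ± 0.531 and a highest cell at 2.85.

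The 3 measured *Ifitm* genes differed widely although they lie in 1 stretch of chromosome 7 (GRCm38: *Ifitm2* at chr7:140954837-140955987, *Ifitm1* at chr7:140967221-140969825 and *Ifitm3* at chr7:141009586-141010770). Per kb of exon, the level of *Ifitm2* was 5.47 and that of *Ifitm1* 0.189 reads per 10000, beside the 88.5 of *Ifitm3*. *Ifitm1* was found in only 53 cells (6.29%, 4.75 to 8.15). Its log value was 0.0591 ± 0.324, with a median of 0 and a highest cell at 3.54, and the median over the cells with reads was 0.835. *Ifitm2* and *Ifitm3* are similar in sequence, and *Ifitm2* overlaps the annotated gene *Gm45717* on the same strand, so the way reads were split between them adds an uncertainty of unknown size. Together the 5 membrane and entry factors made up 70.2% of the summed level of all 44 members.

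Of the remaining members, a pair of neighbouring genes for small hydrophobic proteins came next in share. *Ifi27* was found in 89.9% of cells (87.7 to 91.9) with a log value of 1.32 ± 0.801, a median of 1.45 and a highest cell at 3.03. Its neighbour *Ifi27l2a* was found in 84.4% (81.8 to 86.8) with a log value of 1.39 ± 1.16, a median of 1.30 and a highest cell at 4.75. Per kb of exon *Ifi27l2a* came next after *Ifitm3* in the list at 14.97 reads per 10000, against 2.70 for *Ifi27*, although both were found in a similar share of cells.

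The 4 regulators on the list were all intermediate. *Irf1*, the transcription factor that responds to both interferon-γ and inflammatory signals, was found in 84.2% of cells (81.6 to 86.6), with a log value of 1.35 ± 1.16 and a highest cell at 4.63. *Irf9*, the DNA-binding part of ISGF3, was in 63.7% (60.3 to 66.9), with a log value of 0.641 ± 0.725 and a highest cell at 3.03. *Stat2*, its partner, was in 61.3% (57.9 to 64.6), with a log value of 0.485 ± 0.630 and a highest cell at 3.60. *Irf7*, which amplifies the production of type I interferon, was in 31.8% (28.7 to 35.1), with a log value of 0.264 ± 0.557, a median of 0 and a highest cell at 2.89. Intervals of *Irf9* and *Stat2* overlapped, whereas *Irf1* lay above and *Irf7* below both. *Irf9* overlaps *Rnf31* on the same strand and *Irf7* overlaps *Phrf1* on the opposite one, and with no strand setting stated their reads cannot be fully separated.

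The machinery upstream of these factors was read as well, from a list of 80 pathway genes of which 67 had a row. None of the 12 interferon genes on it had a row, so no ligand level could be read here. According to the paper, genes expressed in very few cells were dropped from its matrix. The matrix used here still held genes at 0 in all cells, such as *Ptprc*, so its rows do not follow that filter. Why the ligands had no row was not tested. *Ifnar2* was found in 82.4% of cells and *Ifnar1*, the other chain of the type I receptor, in 44.1%. The interferon-γ receptor chains *Ifngr1* and *Ifngr2* were in 59.98% and 29.9%. *Ifnlr1*, the specific chain of the type III receptor, was in 1.78% (1.0 to 2.92), while *Il10rb*, the chain it shares with the interleukin-10 receptor, was in 40.6%. Of the receptor-associated kinases, *Jak1* was in 91.8%, *Jak2* in 38.8% and *Tyk2* in 34.2% of cells. Among the transcription factors, *Irf3* was in 65.3%, *Irf2* in 53.9%, *Irf8* in 41.8% and *Irf5* in 0.831%. Of 4 inhibitors of the pathway, *Socs3* was in 97.03%, *Pias1* in 45.4%, *Ptpn2* in 29.8% and *Socs1* in 5.58%. Of another 49 measured interferon-stimulated genes, 1 was in at least 90% of cells, 22 were in 25% to 90% and 26 in under 25%.

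The genes of the ISG15 system, in which a small ubiquitin-like protein is attached to other proteins and taken off again, were intermediate too. *Isg15* (chr4:156199424-156200818) was found in 61.9% of cells (58.5 to 65.2), with a log value of 0.743 ± 0.930, a median of 0.112 and a highest cell at 3.86. *Usp18* (chr6:121245906-121270917), the protease that removes ISG15 and also restrains the type I receptor, was in 31.5% (28.3 to 34.7), with a log value of 0.278 ± 0.575, a median of 0 and a highest cell at 2.78. *Trim25*, an E3 ligase, was in 46.2% of cells. Per kb of exon *Isg15* stood at 3.47 reads per 10000, the sixth highest level of the list, above *Usp18* at 0.249 and *Trim25* at 0.117.

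Of the 9 measured genes that sense or bind foreign RNA, 7 were found in under 25% of cells, as were 72.8% of all genes. The 3 *Ifit* genes, which encode RNA-binding antiviral proteins, lie in 1 stretch of chromosome 19 (*Ifit2* at chr19:34550694-34576419, *Ifit3* at chr19:34583531-34588731 and *Ifit1* at chr19:34640871-34650009). *Ifit1* was found in 20.9% of cells (18.2 to 23.8), with a log value of 0.174 ± 0.480 and a highest cell at 2.70. *Ifit2* was found in 20.7% (17.98 to 23.6), with a log value of 0.129 ± 0.365 and a highest cell at 3.08. *Ifit3* was found in 14.6% (12.3 to 17.2), with a log value of 0.126 ± 0.423 and a highest cell at 3.32. The shares of *Ifit1* and *Ifit2* overlapped within their intervals, and the median of all 3 was 0. *Ifit3* has a close copy, *Ifit3b*, that was found in 6.41% of cells, and reads of the pair may have been split. The oligoadenylate synthetase genes, a family known for activating RNase L, were found least often. *Oasl2* was in 50 cells (5.94%, highest cell 3.06), *Oas1a* in 46 (5.46%, highest cell 2.14), *Oasl1* in 16 (1.90%, highest cell 1.71) and *Oas2* in 4 (0.475%, highest cell 1.13). By contrast, the double-stranded RNA sensors *Eif2ak2* (the kinase PKR) and *Ifih1* (MDA5) were in 37.4% and 30.6% of cells.

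*Rsad2* (viperin, which makes a chain-terminating nucleotide) and *Cmpk2*, the nucleotide kinase encoded beside it on chromosome 12, were both rare. *Rsad2* was found in 29 cells (3.44%, 2.32 to 4.91), with a log value of 0.0225 ± 0.159 and a highest cell at 2.55. *Cmpk2* was in 15.8% of cells. *Mx2*, of which GENCODE M21 calls the C57BL/6 copy a polymorphic pseudogene, was in 12.9% of cells (10.8 to 15.4), with a log value of 0.0801 ± 0.279 and a highest cell at 1.96.

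Setting *Mx2* aside, the remaining interferon-inducible GTPases belong to families that act on the vacuoles of intracellular microbes, and all were intermediate. *Irgm1* was found in 50.6% of cells, *Gbp7* in 45.8%, *Iigp1* in 42.5%, *Gbp2* in 38.95%, *Gbp3* in 34.6% and *Igtp* in 28.4%. Of the 3 genes for the ADP-ribosylation machinery, *Parp14* was in 56.2%, *Parp9* in 32.1% and its partner *Dtx3l* in 21.5% of cells. *Parp9* and *Dtx3l* overlap on opposite strands, and *Igtp* overlaps *Irgm2* on the same strand, so their values are uncertain to that extent. The other members included *Rnf213* (69.8%), *Ifi35* (60.8%), *Xaf1* (53.7%), *Phf11d* (47.3%), *Ifi44* (38.7%), *Samd9l* (37.2%), *Trim30a* (33.5%), *Lgals3bp* (25.3%) and *Rtp4* (24.2%). Of these, *Xaf1*, which promotes cell death, had a log value of 0.512 ± 0.698, *Ifi44* of 0.312 ± 0.579 and *Rtp4* of 0.219 ± 0.498, with highest cells at 3.01, 3.01 and 2.68.

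The share of cells with a member and its level per length did not always go together. For each gene, the 42 cells highest in it (5% of cells) held a median of 14.2% of the gene's summed level among the 4 broadly found members, 40.9% among the intermediate ones and 82.8% among the sparse ones. Over all genes of the matrix the same medians were 15.8%, 38.8% and 100%, so the broadly found and intermediate members were about as concentrated as other genes of their class. A gene found in 42 cells or fewer reaches 100% by construction, so the sparse medians carry no comparison. *Ifitm1* was an example of the mismatch. Its 42 highest cells held 99.9% of its level, but its level per kb (0.189) was close to that of *Irgm1* (0.193), which was found in 50.6% of cells and whose 42 highest cells held 40.9%. *Ifit3* likewise reached 0.206 reads per 10000 per kb from 14.6% of cells, with 82.8% of it in 42 cells.

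**Figure D2:**
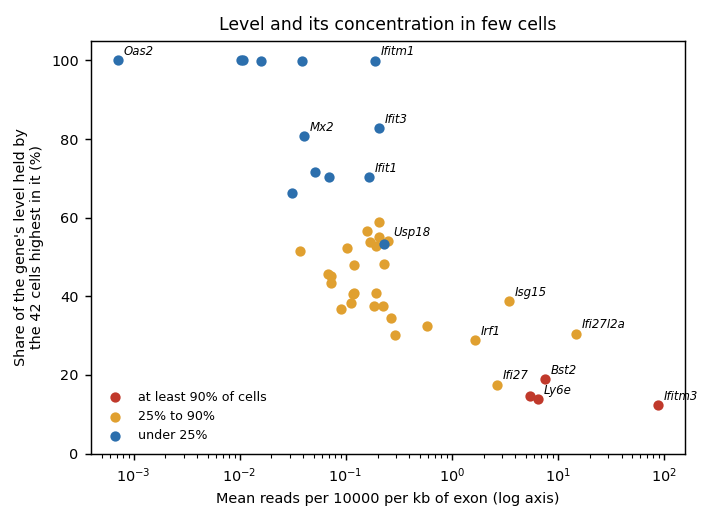
Each point is 1 of the 44 members, placed by its mean reads per 10000 per kb of exon (log axis) and by the percentage of its summed level held by the 42 cells highest in it, coloured by the share of cells with a read. *Ifitm1* and *Ifit3* lie far above intermediate members of about the same level per kb, at 99.9% and 82.8%. A gene found in few cells must lie high on this axis, so the height of sparse members carries no comparison.

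The 40 members outside the broadly found class were not spread evenly over cells. A cell held between 2 and 37 of them (median 14), and 19.8% of cells held at least 20. The variance of this number was 39.3, against 7.17 if each gene had been found in the same share of cells without any link between genes, a ratio of 5.48. Depth contributed to the number, which had a Spearman's rho of 0.43 with total reads across cells. In the thinned cells that rho was −0.011, the number ran from 0 to 33 (median 10), and the ratio was 5.13. The link of the number with depth was thus not seen at equal depth, while the uneven spread was nearly as large. The 13 sparse members alone gave a ratio of 2.29 unthinned and 2.32 thinned. A cell held up to 11 of the 13, while 31.4% of cells held none. As a measure that does not depend on how many genes are counted, the mean covariance of a pair in being found, over the mean variance of a gene, was 0.117 for intermediate members in thinned cells, against 0.0191 for all genes of that class, and 0.110 for sparse members, against 0.00157.

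**Figure D3:**
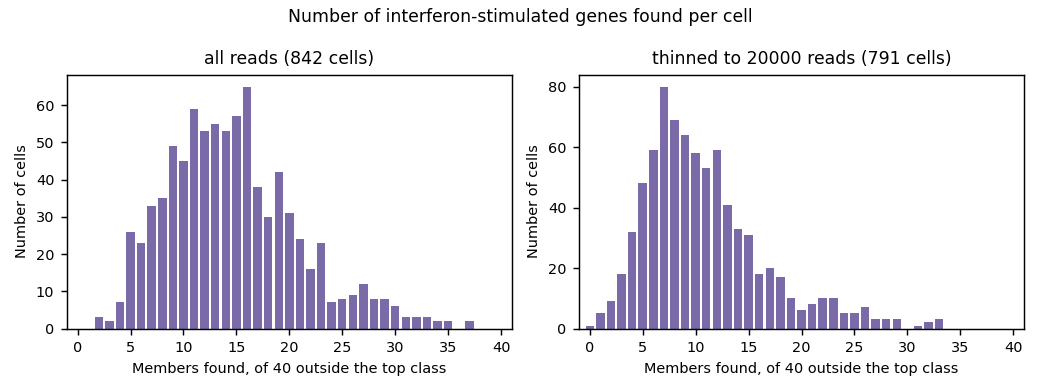
Number of cells (vertical axis) by how many of the 40 members outside the broadly found class had at least 1 read (horizontal axis), with all reads (left) and after thinning to 20000 reads (right). Both distributions have 1 main peak and a long right tail, reaching 37 members with all reads and 33 after thinning.

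Members varied together more than other genes did. Pearson's r was computed over the log values of all cells for each pair, as a description with no p-value, since all cells come from 1 sample and differ in depth. Among the 27 intermediate members the median r was 0.155 (range over pairs −0.0909 to 0.441), against 0.00541 for all pairs of genes of that class. Among the 13 sparse members it was 0.135 (−0.0365 to 0.470), against −0.00607, and between intermediate and sparse members it was 0.119, against −0.00492. Thinning gave 0.143, 0.110 and 0.104 for these 3 sets. Of the pairs of intermediate members 30.8% were over 0.2, against 0.0345% of all such pairs. Most single values were weak, and a weak r between sparse genes carries little by itself.

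The closest pairs joined a small set of genes. *Usp18* and *Rtp4* (which helps receptors reach the surface) had the highest r at 0.503, and 57.4% of the cells with *Rtp4* also had *Usp18*, which was found in 31.5% of all cells. *Usp18* and *Ifit1* had an r of 0.471, *Ifit1* and *Rtp4* of 0.470, and *Ifit1* and *Ifit3* of 0.460. *Isg15* had an r of 0.453 with *Ifit1*, of 0.441 with *Usp18* and of 0.423 with *Rtp4*. *Isg15* was found in 80.7% of the cells with *Ifit1* and in 81.9% of the cells with *Rtp4*, against 61.9% of all cells. The shares of cells with both genes use all reads, and the number of members found rose with depth. The part of depth in these shares was not tested. *Usp18* also had an r of 0.424 with *Ifi44* and of 0.419 with *Xaf1*. These 9 pairs had an r between 0.361 and 0.473 after thinning. The other of the 10 highest pairs was *Ifitm3* with *Ly6e*, at 0.471.

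Averaged over the other members outside the broadly found class, r was highest for *Usp18* (0.248), *Isg15* (0.246), *Ifit1* (0.238) and *Rtp4* (0.236). The median over these 40 members was 0.148, against 0.00177 for the 9617 other genes found in at least 10% of cells, of which 95% lay under 0.0281. Members of 1 gene family did not always vary alike. The mean r of *Ifit2* was 0.123, below that of its neighbours *Ifit1* and *Ifit3* (0.206), and its r with them was 0.218 and 0.251. *Ifitm2* (−0.0106), *Ifi27* (−0.0081), *Ifitm1* (−0.0013) and *Irf1* (0.0258) lay within the range of other genes. *Ifitm2* was thus found in nearly every cell and had an r of 0.349 with *Ifitm3*, but its lowest values were with members of the co-varying set, at −0.107 with *Phf11d* and −0.104 with *Parp14*. *Ifi27* had its highest r within the 40 at 0.0791, with *Ifitm1*.

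**Figure D4:**
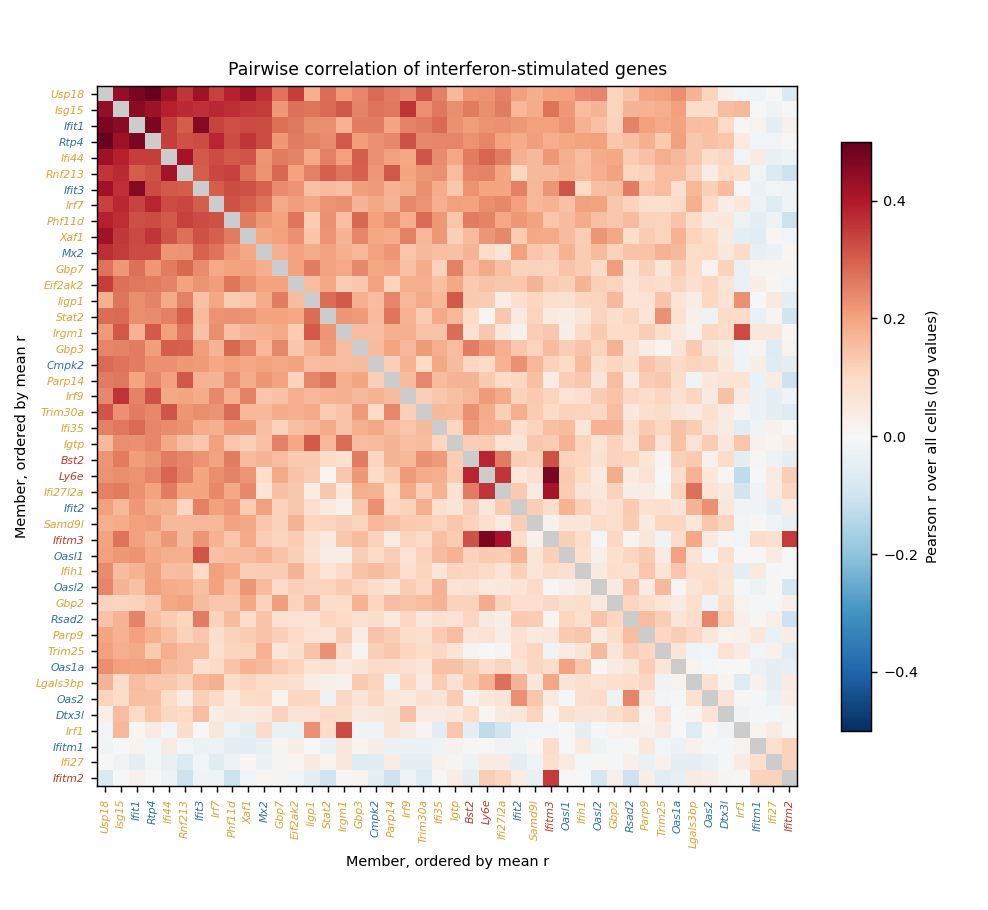
Pearson's r over all cells for each pair of the 44 members, both axes ordered by mean r, with red above 0, blue below 0, the diagonal in grey and names coloured red, orange or blue for genes found in at least 90%, 25% to 90% or under 25% of cells. A block led by *Usp18*, *Isg15*, *Ifit1* and *Rtp4* fills the upper left. *Bst2*, *Ly6e* and *Ifi27l2a* stand side by side, with *Ifitm3* apart from them after *Ifit2* and *Samd9l*. The last 4 rows, *Irf1*, *Ifitm1*, *Ifi27* and *Ifitm2*, are mostly pale, with exceptions such as *Ifitm2* with *Ifitm3* (0.349) and *Irf1* with *Irgm1* (0.326).

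*Ifitm3*, *Ly6e* and *Bst2* formed another set. The median r of the 6 pairs of broadly found members was 0.333, from −0.0441 for *Bst2* with *Ifitm2* upwards, against 0.0349 for all pairs of genes found in at least 90% of cells. *Ifi27l2a*, an intermediate member, had an r of 0.413 with *Ifitm3* and of 0.359 with *Ly6e*. With the members outside their class, *Bst2* and *Ly6e* had a mean r of 0.142 and 0.139 and *Ifitm3* of 0.119, so these 3 also followed the co-varying set, which *Ifitm2* did not.

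*Irf1* belonged to neither set. Its highest r within the list was 0.326 with *Irgm1*, a GTPase gene, and its lowest was −0.127 with *Ly6e*. *Irf1* is also known as an early-response gene, so members were set beside the mean log value of 92 genes known to rise when tissue is dissociated. *Irf1* had an r of 0.574 with this mean (0.560 thinned), the highest of all 44 members, followed by *Irgm1* at 0.196 and *Isg15* at 0.122, while *Ly6e* was lowest at −0.201. The part that tissue handling had in the level of *Irf1* was not tested.

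Among genes outside the list, those most like the members were largely other interferon-stimulated genes. By mean r with the 40 members over all cells, the highest of the 9617 included *Zbp1* (0.166), *Gm4951* (0.159), *Ddx58* (0.152), *Gbp6* (0.152), *Irgm2* (0.143), *Tgtp1* (0.140), *Dhx58* (0.138), *Lgals9* (0.137) and *Psmb8* (0.133). Of these 9, 7 were on the pathway list, and *Gm4951* and *Lgals9* were not. *Lgals9* was found in 86.8% of cells, unlike the other 8, which were found in 11.05% to 62.5%. *Irgm2* overlaps the member *Igtp*. The receptors did not follow this pattern, with a mean r of 0.0257 for *Ifnar2*, 0.0174 for *Ifngr1* and 0.00621 for *Ifnar1*, all under the 0.0281 below which 95% of other genes lay. *Jak1* (0.0113) and *Socs3* (0.0048) also lay below it, while *Irf3* (0.0381) and *Irf2* (0.0290) lay above it.

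Finally, the members were set against the kinds of LEC in the sample. Cells were clustered without the members and without the pathway list, so that these genes did not themselves define the clusters. Other interferon genes not on the lists were kept, so some dependence on the clustering may remain. This gave 5 clusters, of which clusters 1 to 3 held 37.8%, 27.6% and 23.9% of cells and clusters 4 and 5 held 46 and 45 cells. By lists of LEC markers, cluster 2 was Ptx3+ capillary-like (5 of 5 markers raised) and cluster 4 was Ptx3- capillary-like (5 of 5). Cluster 3 also met the rule for Ptx3- capillary-like cells, with *Lyve1*, *Reln* and *Ccl21a* (3 of 5). However, *Fndc1* and *Ptn*, by which the paper annotates that class, were not raised in it, so it is not given that name here. Cluster 5 was valve-like (*Cldn11*, *Itga9* and *Neo1* of 7 markers). Cluster 1 met no rule, and its leading genes were *Igfbp5*, *Clca3a1* and *Adamts1*. A name needed 3 raised markers, and the precollecting list holds only 2 genes, so no cluster could be named precollecting. *Foxp2*, from that list, was raised in cluster 1. Median reads per cell lay between 288743 and 351502 in 4 clusters and at 542382 in cluster 4.

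Shares of the most co-varying genes were set side by side between clusters. *Usp18* was in 31.4%, 32.8%, 29.9%, 28.3% and 35.6% of the cells of clusters 1 to 5. *Ifit1* was in 22.01%, 20.7%, 20.4%, 19.6% and 17.8%, and *Isg15* in 61.9%, 64.7%, 58.7%, 63.04% and 60%. *Rtp4* was in 24.2%, 28.4%, 21.4%, 17.4% and 22.2%. The 95% intervals of each of these 4 genes overlapped between all 5 clusters, and they were wide in the small clusters 4 and 5. Cluster 4 was also the deepest, with a median of 542382 reads per cell, and after thinning, which left 40 of its cells, it had the lowest share of all 4 genes. Thinned shares were 22.4%, 25.5%, 21.2%, 15% (5.71 to 29.8) and 23.3% for *Usp18*. They were 45.8%, 51.4%, 45.1%, 30% (16.6 to 46.5) and 48.8% for *Isg15*. They were 14.4%, 14.8%, 12.4%, 5% (0.611 to 16.9) and 11.6% for *Ifit1*, and 12.5% (4.19 to 26.8) in cluster 4 against 13.95% to 21.8% elsewhere for *Rtp4*. The thinned intervals of each gene overlapped as well. By level, *Isg15* had a log2 ratio of −0.48 in cluster 4 and −0.40 in cluster 5. Not every co-varying gene had overlapping intervals, but these cover counting error only and are no test between clusters. *Rnf213* was in 75% (68.9 to 80.4) of the cells of cluster 2 and 50% (34.9 to 65.1) of cluster 4, and *Phf11d* in 57.8% (51.1 to 64.2) of cluster 2 and 42.8% (37.3 to 48.4) of cluster 1. Within single clusters the median r over pairs of the 40 members was 0.158, 0.118, 0.133, 0.180 and 0.178, against 0.137 over all cells.

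A log2 ratio of mean reads per 10000 plus 1, cluster against all other cells, of at least 0.3 in size was counted as a difference. In cluster 1, 5 members were higher (1.05% of all genes were) and 2 lower (1.09%). In the Ptx3+ capillary-like cluster 2, 5 were higher (1.46%) and 4 lower (1.48%). In cluster 3, 0 were higher (0.423%) and 3 lower (0.669%). In the Ptx3- capillary-like cluster 4, 4 were higher (2.5%) and 12 lower (2.29%), and in the valve-like cluster 5, 4 were higher (2.3%) and 12 lower (2.74%). The added 1 keeps low genes from reaching this ratio, and among genes found in at least 25% of cells, 20.3% were higher in at least 1 cluster, against 13 of the 31 members of that kind. Without replicate samples none of these differences could be tested.

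All 4 broadly found members reached this ratio, in either direction, in at least 1 cluster, as did 19 intermediate and 2 sparse ones. The share of all genes of each class that did so was not counted. Since the added 1 keeps low genes below the cut, these counts carry no comparison between classes. *Bst2* had its highest level in the Ptx3+ capillary-like cluster, with a log value of 2.13 ± 0.788 (log2 ratio 0.71), ahead of cluster 3 (1.76 ± 0.837), cluster 1 (1.53 ± 0.809), the valve-like cluster (1.44 ± 0.791) and cluster 4 (1.32 ± 0.840). *Ifitm2* ran the other way between these clusters, with 1.11 ± 0.479 in the Ptx3+ capillary-like cluster (log2 ratio −0.56) and 1.60 ± 0.499 in cluster 1 (0.48). *Ifi27l2a* was also low in the Ptx3+ capillary-like cluster, at 1.09 ± 1.07 (−0.68). *Ly6e* was lowest in the Ptx3- capillary-like cluster 4, at 2.46 ± 0.770 (−0.83), and *Ifitm3* in the valve-like cluster, at 3.62 ± 0.638 (−0.48). *Iigp1*, a GTPase gene, was also low in the valve-like cluster (−0.72), where it was in 22.2% of cells. *Lgals3bp*, a secreted glycoprotein, was highest in the valve-like cluster (0.69) and in cluster 4 (0.62), where 46.7% and 43.5% of cells had it, against 19.4% of the Ptx3+ capillary-like cells. For *Bst2* and *Ifitm2*, the ranges of 1 SD around the means given here overlapped between clusters.

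*Irf1* was lowest in cluster 4, at 0.918 ± 0.914 (−1.02), and highest in cluster 1, at 1.53 ± 1.21 (0.51). *Irgm1*, the member closest to it, had log2 ratios of −0.78 and 0.33 in the same clusters. Cluster 4 also had lower *Parp14* (26.1% of cells, −0.70), while the Ptx3+ capillary-like cluster had higher *Parp14* (63.4%, 0.39), *Phf11d* (0.37), *Gbp3* (0.37) and *Rnf213* (0.36). *Ifitm1* was found in 8.81% of cluster 1 cells and in none of the 46 cells of cluster 4, where counting alone allows up to 6.52% (3 counts).

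**Figure D5:**
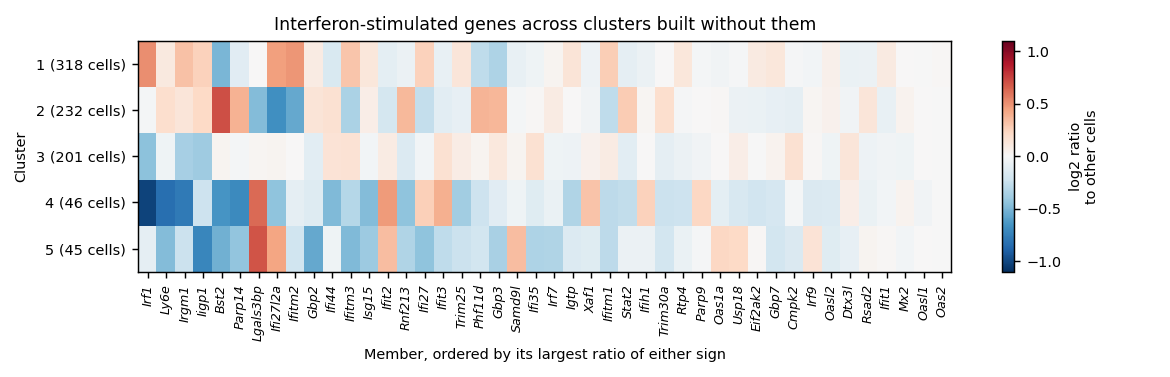
Log2 ratio of each of the 44 members (columns, ordered by the largest ratio of either sign) in each of 5 clusters against all other cells (rows), with red higher and blue lower. The strongest colours are *Irf1* (−1.02), *Ly6e* (−0.83) and *Irgm1* (−0.78) in cluster 4, *Iigp1* (−0.72) in cluster 5 and *Bst2* (0.71) in cluster 2. *Usp18*, *Rtp4* and *Ifit1* stay pale, but they average only 0.696, 0.493 and 0.440 reads per 10000. At such levels the 1 added before the ratio keeps it small, so pale colours do not show equal levels.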

How the data were processed

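Single LECs were sorted from pooled mucosa and their libraries made by the Smart-seq3 protocol. STAR alignment to mm10 and gene counts by featureCounts (Subread) were done by the authors, whose notes name Seurat 4.1.0. According to the paper, cells with few genes or many mitochondrial reads were removed, as were genes expressed in fewer than 3 cells. The matrix used here did not follow that gene limit. Of its 16863 genes found in under 25% of cells, 15150 were in at least 3 cells, and some were at 0 in all cells. The deposited values are on a natural log scale, since the exponential minus 1 summed to 10000 in each of the 842 cells, although the methods name another base. Strand and multi-mapping settings are not given in the sources used here. The sources speak of reads and not of molecular identifiers, so reads of 1 gene in a cell may not be independent molecules. All 842 adult cells were used, of which 791 had enough reads to be thinned.

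Whole reads were recovered from the log values for 100% of values (within 0.01). Members and lists were chosen with earlier results of these data known, and so were the genes described. All 45 members were accounted for. Those given in full were the regulators, the 6 highest and 6 lowest by share of cells, the members of the 10 highest pairwise r, and the *Mx*, *Ifitm* and *Ifit* families. The 10 genes most like them by mean r, with at least 10% of cells, and the receptors, kinases and factors of the pathway were also named. A gene that this rule would name is not reported here. Levels per kb used the exon length of GENCODE M21 (GRCm38), which gave a length to 95.9% of genes. Clusters came from Seurat 5.3.0 in R 4.3.3 (2000 variable genes, 15 principal components, total reads, mitochondrial share, dissociation and ribosomal scores regressed, Louvain at a resolution of 0.45, the smallest in steps of 0.05 giving 5 clusters). Other interferon genes not on the lists stayed among the variable genes. No doublet caller was run. A cluster took a name at 3 or more raised markers of a class, except cluster 3, which met the rule without *Fndc1* and *Ptn*. Clusters held 318, 232, 201, 46 and 45 cells. Values were computed with SciPy 1.17.1, pandas 2.3.3 and NumPy 2.4.6 under Python 3.11.15, and the steps were tested on simulated data. Alternatives changed the value at which a gene counted as found, depth, the filter on cells, the measure of correlation, the clustering and the pseudocount of 1.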

Additional observations from a re-analysis of the deposited data

How the results depend on the processing

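Of 51 summary values recomputed under another setting, 45 stayed within 1.5 times the reported value, 6 moved further and 0 changed sign. Counting a gene as found only at a log value above 1 gave 2 members in at least 90% of cells (in place of 4) and 34 in under 25% (in place of 13), and thinning to 20000 reads gave 23 in under 25%. The median level over members was 0.494 as the log of 1 plus the mean and 0.274 as the mean of logs. With a pseudocount of 0.1 in place of 1, 31 members were higher and 36 lower in at least 1 cluster, in place of 15 and 20, and 38.1% of all genes were then higher in at least 1 cluster, in place of 6.81%. All median correlations of members stayed within 1.5 times under Spearman's rho, thinning, residuals on depth, deeper cells, gene families left out and, chosen after seeing the data, within clusters and without the 5 cells that held markers of another type. Under Spearman's rho the medians over all genes rose to 0.0362 among intermediate genes, from 0.00541, and to 0.0147 between intermediate and sparse genes, from −0.00492. Single shares of cells depended on depth, with 41 of 44 outside their interval after thinning, 24 of 44 in cells of at least 100000 reads and 19 of 44 in cells of at least 3000 genes. No paired analysis was possible because all cells form 1 sample. Depth limits the shares of members outside the broadly found class, and no setting could show variation between mice.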
